A study of Mus musculus with 18 samples.

Results

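Normal mouse lenses were compared at 42 and 14 days after birth, the period in which the lens goes on growing after the eyes have opened. Of the 18 arrays of the series, the 6 titled as wild type (wt) lenses of these ages were taken, 3 of 42 days and 3 of 14 days. The 3 wt arrays of 2 days of age entered only to estimate the spread between arrays and as a reference level, and the arrays of transgenic lenses were left out, except in 1 alternative fit. Wt mice carried no transgene; the sources used here do not give their strain, although the parallel transgenic mice came from FVB/N embryos and were crossed to Balb/c. Each array held RNA of 1 independent pool of 4 to 8 whole lenses, so p-values measure the spread between pools and not between animals. In RNA of whole lenses, fewer cells of a type and less RNA per cell cannot be told apart.

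The lens is built of a single layer of epithelium over its front face and of a mass of fiber cells. Epithelial cells near the equator leave the cell cycle, elongate and become fibers, which fill with crystallins, the soluble proteins that give the lens its refractive power, and then lose their nuclei and other organelles. New fibers are laid over old ones throughout life, and the avascular tissue draws most of its energy from glycolysis and is protected by antioxidants and by aldehyde dehydrogenases. The vessels that feed the lens before birth regress in the first weeks after it.

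The values are Affymetrix signals, set here to a common scale on which the 2% trimmed mean of every array is 500. Before this scaling, wt 14 days replicates 2 and 3 and wt 42 days replicate 1 had a trimmed mean of 500.3, whereas it was 50.4 in wt 14 days replicate 1, 24.2 in wt 42 days replicate 2 and 48.1 in wt 42 days replicate 3. The ratio of the 5′ to the 3′ Gapdh control probe sets, a measure of RNA integrity, was 0.294 in wt 42 days replicate 3 and between 0.988 and 1.45 in the other 5 arrays. The same ratio of the actin control was 0.323 in wt 42 days replicate 3, 0.433 in wt 14 days replicate 1 and 0.609 to 1.002 in the rest. Over 6359 bright probe sets, wt 14 days replicate 1 stood more than 2-fold apart from both other arrays of its age in 19.3%, wt 42 days replicate 3 in 11.4%, and the other 4 arrays in 2.03% to 4.21%. On 6434 bright probe sets, wt 14 days replicate 1 correlated with its own age group at 0.770 and 0.790, with the 42-day arrays at 0.796 to 0.850 and with wt 2 days replicates 1, 2 and 3 at 0.913, 0.638 and 0.802, whereas wt 14 days replicates 2 and 3 correlated with each other at 0.939. This array thus correlated better with the 42-day arrays and with 2 of the 3 arrays of 2 days than with those of its own age, and values without it are given beside many of the results below.

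The lens label was borne out by its markers. The intrinsic lens membrane protein gene Mip had signals of 30833, 23361 and 21758 at 14 days and 31380, 34948 and 18509 at 42 days. The crystallin probe sets, 17 in number, held 8.11% to 9.04% of the summed signal at 14 days and 7.86% to 12.5% at 42 days. The fiber marker Lim2 and the epithelial marker Foxe3 have no probe set assigned to a single symbol and were not analysed here.

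Between 14 and 42 days the aldehyde dehydrogenase gene Aldh3a1 rose 6.47-fold. Lgals1, Ckb and Ldhb were higher, and Col9a1, Pla2g7, Smad4 and the fiber cell gene Caprin2 lower, in every array of 42 days, without passing the test, and the crystallins overlapped between the ages. Across the 12422 probe sets tested, 1 passed the test between 42 and 14 days (limma with Benjamini-Hochberg adjustment, adjusted p under 0.05). It was higher at 42 days, which is 0.00805% of those tested, and none, 0%, was lower by limma. At an unadjusted p under 0.05 limma gave 975 probe sets, 543 higher and 432 lower. A second, descriptive rule asked for a ratio of the mean signals of at least 1.5 with no overlap between the 3 and 3 arrays. It held for 864 probe sets higher at 42 days (6.96%) and for 612 lower (4.93%), and these shares are the background for the counts of named genes given further on. On the level of genes, with the brightest probe set standing for each of 8251 genes, the shares were 6.64% and 5.41%, and the median log2 difference of 42 minus 14 days was 0.08. Scaling to the median turned the median of 6 of the 39 gene lists described further on negative, all of them lists with a median between 0 and 0.08. With 3 against 3 arrays an exact two-sided permutation test of a single gene cannot give a p under 0.1.

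**Figure D1:**
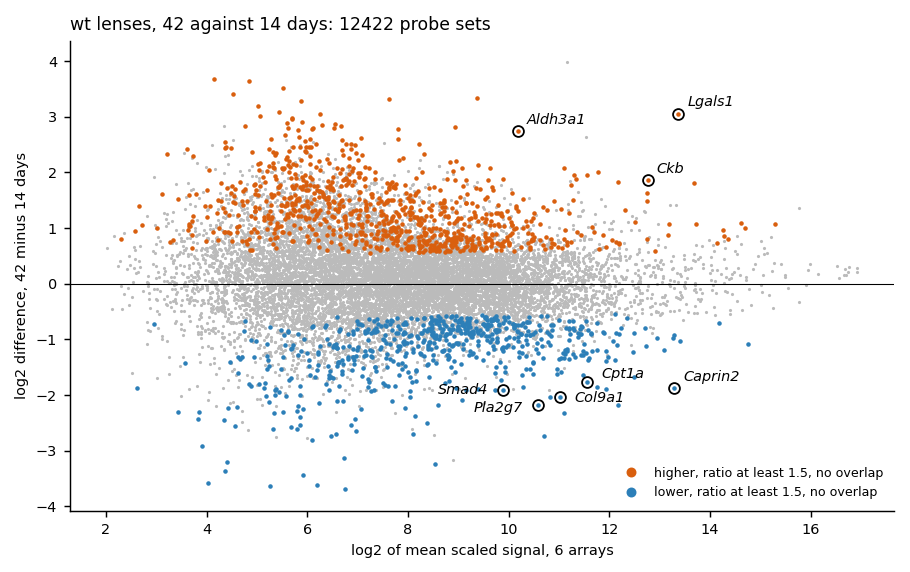
Each point is 1 of 12422 probe sets, with the log2 of its mean scaled signal over the 6 arrays on the x axis and the fitted log2 difference of 42 minus 14 days in wt lenses on the y axis. Orange and blue points have a ratio of at least 1.5 and no overlap between the arrays of both ages, and circles mark 8 named genes, of which Aldh3a1 alone passed limma's test.

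A few other settings called more, while many called 0 either way. Without wt 2 days replicate 2, limma called 1 higher and 1 lower. With arrays weighted by their fit, so that wt 14 days replicate 1 counted least (weight 0.496), 4 probe sets were higher and 13 lower by limma. In the 6 arrays of these ages without wt 14 days replicate 1, a choice made after seeing the data, 68 were higher and 62 lower, and 15 of the 17 called with weights were among these 130. Without that array, however, the removed value itself lay within or above the range of the 42-day arrays for 32 of the 68 higher probe sets, and within or below that range for 28 of the 62 lower ones. When the 2-day arrays were kept, leaving out wt 14 days replicate 1 gave only 1 higher and 0 lower by limma. The adjusted p-values of Lgals1, Krt12, Aqp1, Rps19, Psmd4 and Sag given below for the 6 arrays without it come from the fit chosen later. Without wt 42 days replicate 3, the array with the low Gapdh ratio, limma called 0 either way. At an unadjusted p under 0.05 that fit gave 865 probe sets.

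Aldh3a1, the gene of a cytosolic aldehyde dehydrogenase that is abundant in the corneal epithelium and removes aldehydes formed under ultraviolet light, rose between 14 and 42 days. Its signals were 402, 314 and 216 at 14 days and 1982, 1952 and 2092 at 42 days. The 42-day arrays lay close together and far above every 14-day array, and the 2-day arrays, at 364, 340 and 395, lay with the 14-day ones. The mean signal went from 310 ± 93.1 to 2008 ± 73.6 (SD, n = 3 each), a ratio of 6.47. The fitted log2 difference was 2.74 ± 0.32 (SE; limma, adjusted p = 0.0241). Within the 3 arrays deposited at a trimmed mean near 500 the difference was 2.93, and within the 3 deposited below it 2.33. The call, although not the difference, depended on single arrays: limma's adjusted p was 0.24 without wt 42 days replicate 3, 0.141 without replicate 2 and 0.162 without replicate 1 of that age, 0.176 and 0.193 without wt 14 days replicates 2 and 3, and 0.0785 without wt 2 days replicate 3. Over the 22 alternatives the log2 difference ran from 2.50 to 2.95 and the limma adjusted p from 0.00264 to 0.709. A second, dim Aldh3a1 probe set had mean signals of 39.7 and 65.9 and did not pass (0.61, limma, adjusted p = 0.838).

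Other genes of corneal and surface epithelium were read beside Aldh3a1, because the cornea lies next to the lens. Of 19 such genes measured, 5 met the descriptive rule upwards, namely Aldh3a1, Tkt, Krt8, Krt15 and Epcam, and none downwards, with a median log2 difference of 0.59 against 0.08 over all genes. The summed signal of the list was 11582, 4127 and 5391 in the 14-day arrays and 14521 to 16156 at 42 days. Much of this sum came from Tkt, at 7215.3, 1526.0 and 2876.5 against 8746.1, 11093.5 and 9779.4, and from Aldh3a1 itself. It is therefore not a separate result for the other genes of the list. Krt12, the keratin that defines corneal epithelium, had signals of 952, 205 and 151 at 14 days and 464, 304 and 492 at 42 days, and Krt5, a basal keratin, stayed at 20.7 to 83.8 in all 6 arrays. Krt12 overlapped between the ages through wt 14 days replicate 1 alone, and in the 6 arrays without it its difference was 1.23 (limma, adjusted p = 0.188). For 10 of the 19 genes wt 14 days replicates 2 and 3 both lay below all 42-day arrays, a count with no share over all genes beside it. Without replicate 1 the median of the list was 0.99. No defining marker was listed at 0. The part of corneal RNA in the Aldh3a1 signal was not tested beyond these values.

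The genes next in order were higher at 42 days in every array than in any 14-day array, but did not pass limma's test. Galectin-1 (Lgals1), a small sugar-binding protein secreted into the matrix, had the largest difference among them, 3.06 ± 0.73 (limma, adjusted p = 0.373). Its signals were 6126, 1352 and 1225 at 14 days and 18054, 21947 and 14790 at 42 days, so that wt 14 days replicate 1 stood well above its group but below the 42-day arrays. In the 6 arrays without that array the Lgals1 difference was 3.81 (limma, adjusted p = 0.00092). Brain creatine kinase (Ckb), which buffers ATP, had signals of 2735, 2631 and 3610 at 14 days and 9014, 11590 and 12095 at 42 days, a difference of 1.87 ± 0.36 (limma, adjusted p = 0.256). The groups of Ckb lay far apart with little spread within either.

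Of the other genes of this set, Ldhb, the heart-type subunit of lactate dehydrogenase, had 293, 263 and 382 at 14 days and 672, 1109 and 1915 at 42 days. Manf, a factor induced by stress in the endoplasmic reticulum, had 848, 648 and 447 against 1764, 1388 and 2365. Use1, a SNARE protein of retrograde transport to the endoplasmic reticulum, had 1620, 1041 and 955 against 2615, 3075 and 3299. The groups did not overlap for these genes, and their log2 differences were 1.87, 1.52 and 1.35. Dnm1, the dynamin of endocytosis, was at 474, 1744 and 1422 against 3561, 3662 and 4564, with wt 14 days replicate 1 the low array here. The potassium channel gene Kcnn1 (103, 84.3 and 75.8 against 419, 690 and 415), the liprin gene Ppfibp2 (174, 158 and 158 against 407, 1151 and 920) and the splicing factor gene Sart3 (82.5, 59 and 192 against 283, 603 and 701) completed the 10. A second Ppfibp2 probe set was dim, with means of 22.9 and 20.2, and pointed the other way (-0.62).

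Among genes lower at 42 days, Col9a1 came nearest to the threshold, at -2.03 ± 0.30 (limma, adjusted p = 0.119). It encodes a chain of collagen IX, which in the eye is a part of the vitreous. Signals were 2422, 2988 and 4624 at 14 days and 910, 802 and 675 at 42 days, while the 2-day arrays lay between, at 1450, 1293 and 1334. Pla2g7, the gene of a secreted phospholipase that cleaves platelet-activating factor, had 3045, 2512 and 2029 at 14 days and 536, 559 and 566 at 42 days, a difference of -2.17 ± 0.33 (limma, adjusted p = 0.119). The spread of Pla2g7 at 42 days was an SD of 15.6 on a mean of 554, and it passed the test when wt 2 days replicate 2 was left out (limma, adjusted p = 0.0263).

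Smad4, the partner shared by the TGF-beta and BMP branches of SMAD signaling, had signals of 1461, 1620 and 1373 at 14 days and 334, 359 and 506 at 42 days. Its groups were wide apart, and the difference was -1.91 ± 0.31 (limma, adjusted p = 0.15). Cpt1a, which carries fatty acids into mitochondria for oxidation, had 4009, 5325 and 4645 against 1587, 1037 and 1542 (-1.76 ± 0.36). Eid1, an inhibitor of EP300-dependent differentiation, had 4364, 5419 and 6310 against 1942, 1533 and 1070 (-1.85 ± 0.29). Both were lower in every 42-day array. Dipk2a (4483, 9501 and 8628 against 2175, 1210 and 1508), the translation initiation scaffold Eif4g3 (884, 1557 and 1562 against 518, 306 and 256), Ccdc117 (802, 1264 and 1103 against 350, 275 and 232) and the deubiquitinase Zranb1 (1025, 706 and 964 against 328, 202 and 200) followed, with log2 differences from -2.18 to -1.88.

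Caprin2 belongs to the same set and to the lens. It encodes an RNA-binding protein that is made as fiber cells differentiate. Its signals were 16334, 17323 and 13323 at 14 days and 3704, 3731 and 5452 at 42 days, and the 2-day arrays, at 19866, 13097 and 26702, were as high as those of 14 days. The difference was -1.88 ± 0.34 (limma, adjusted p = 0.192).

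All 20 genes, 10 in each direction, kept their sign under the 22 alternatives. They also kept it within the arrays deposited near and below a trimmed mean of 500, where the size ran from 0.98 to 3.81. Because the genes were chosen for no overlap, leaving out or splitting arrays could not turn their sign, so this is not separate support. The 19 that did not pass had limma adjusted p-values from 0.119 to 0.377. With array weights 12 of the 20 were called, and 16 in the 6 arrays without wt 14 days replicate 1.

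**Figure D2:**
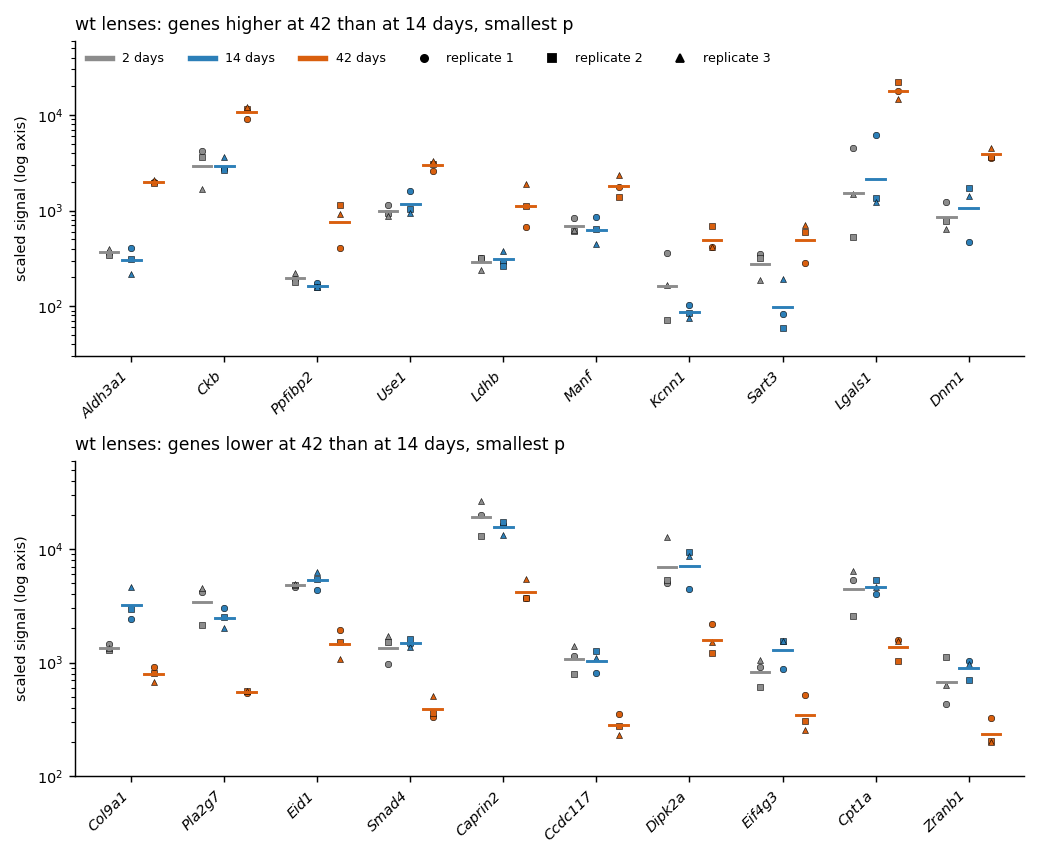
Scaled signal on a log axis of the 10 genes higher and the 10 genes lower at 42 than at 14 days with the smallest p in wt lenses; each symbol is 1 array, coloured by age and shaped by replicate, and bars are geometric means. The 42-day arrays stand clear of the 14-day arrays for each gene because the genes were chosen for no overlap. The 2-day arrays lie near those of 14 days for most, Col9a1 being an exception.

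Crystallin genes did not pass the test between 14 and 42 days. Of 9 measured, limma called 0 (0 also at an unadjusted p under 0.05), and 0 met the descriptive rule in either direction. Their log2 differences ran from -0.55 to 0.30 with a smallest limma adjusted p of 0.788, and the sign turned under some alternative for 7 of them. Cryaa, the alpha-crystallin that is also a chaperone, had 103097, 120759 and 114031 at 14 days and 106492, 183965 and 114063 at 42 days. Cryab, its relative, which other tissues make as well, had 31793, 20153 and 24995 against 23542, 16399 and 13313. The groups overlapped for both. Among beta- and gamma-crystallins, Crybb2 had 103145, 93793 and 95209 against 109603, 167153 and 94317, and Crygs had 91198, 102763 and 103221 against 94884, 156825 and 90967. In most of these genes wt 42 days replicate 2 was the highest of the 6 arrays, and it had the lowest trimmed mean before scaling (24.2). Gamma-crystallin genes are near-identical copies, so that their probe sets may share targets.

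Genes of the fiber cell were uneven. Of 12 measured, 4 met the descriptive rule downwards, Caprin2, Capn3, Sptbn1 and Cdh2, and none upwards, with a median of -0.25. Capn3, the calpain whose lens form cleaves crystallins, had signals of 2243, 1758 and 2496 at 14 days and 713, 572 and 825 at 42 days (-1.62 ± 0.36; limma, adjusted p = 0.306), and 2 further Capn3 probe sets were lower as well (-1.42 and -1.20). Sptbn1, the beta-spectrin of the membrane skeleton under the fiber membrane, had 6954, 6328 and 5430 against 3259, 2784 and 2681 (-1.10 ± 0.29). Its partner Sptan1, listed with the cytoskeleton, had 8899, 8399 and 10624 against 4299, 4259 and 4194 (-1.12 ± 0.30), so both spectrin chains were lower in every 42-day array by a like amount. Cdh2, the N-cadherin of fiber junctions, had 1710, 3405 and 3351 against 1027, 1010 and 278, and the lowest of these was wt 42 days replicate 3, without which its difference was -1.40 in place of -2.03.

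Other structural fiber genes overlapped between the ages. The beaded filament gene Bfsp1 had 51412, 23813 and 33305 at 14 days and 41328, 46853 and 33622 at 42 days. Gja3, the connexin that couples fibers, had 4600, 3398 and 5091 against 3677, 3409 and 1531. Mip, given above, the intermediate filament gene Vim and the adhesion gene Nrcam did not separate either.

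**Figure D3:**
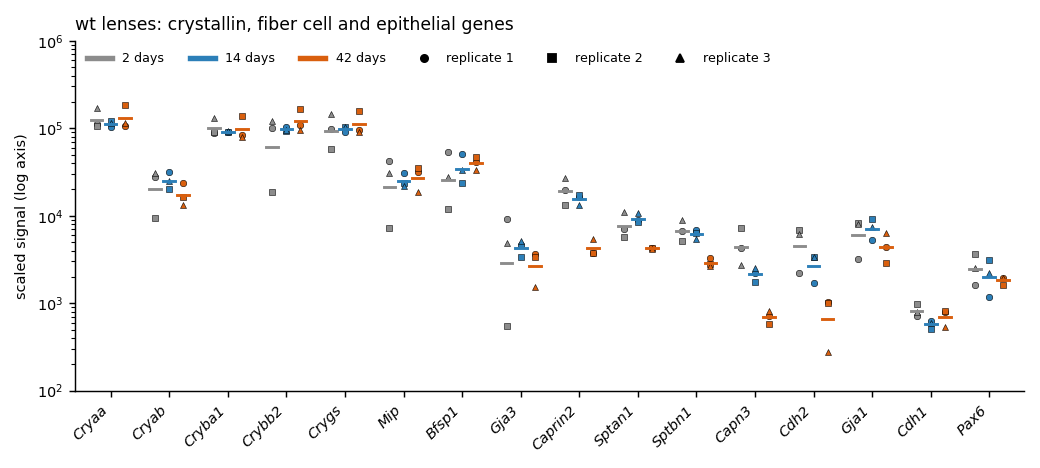
Scaled signal on a log axis of crystallin, fiber cell and epithelial genes in the 9 wt arrays; symbols are arrays, coloured by age and shaped by replicate, and bars are geometric means. Caprin2, Sptan1, Sptbn1, Capn3 and Cdh2 lie lower at 42 than at 14 days without overlap, while the crystallins, Mip and Bfsp1 overlap.

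Of 11 genes of lens epithelium, 1 met the descriptive rule upwards and 1 downwards, with a median of 0.06. Aqp1, the epithelial water channel, had 407, 82.4 and 40.8 at 14 days and 927, 901 and 574 at 42 days (2.82 ± 1.08; limma, adjusted p = 0.574). The 14-day arrays of Aqp1 differed widely, with wt 14 days replicate 1 well above the others, and without that array, in the 6 arrays, the difference was 3.76 (limma, adjusted p = 0.015). Sparc, a matrix protein of epithelium and capsule, had 7022, 4853 and 4525 against 2410, 2059 and 2531 (-1.21 ± 0.39; limma, adjusted p = 0.493). E-cadherin (Cdh1) and the eye field factor Pax6 overlapped, with Pax6 at 1168, 3149 and 2187 against 1923, 1616 and 1935. The connexin gene Gja1 overlapped on its brightest probe set, at 5216, 9128 and 7498 against 4439, 2871 and 6404. A second Gja1 probe set was lower without overlap, at 472, 950 and 694 against 292, 237 and 251 (-1.39 ± 0.42; limma, adjusted p = 0.471). Among 18 lens transcription factors, none met the rule upwards and 2 downwards, Six3 and E2f1, with a median of -0.32 that was -0.04 without wt 42 days replicate 2. Six3, a homeobox factor of the early lens, had 1219, 1042 and 1095 against 737, 806 and 500 (-0.74 ± 0.35), and a dim second probe set differed in sign (0.46). Of 13 genes of calpains, lysosomal DNase and organelle loss, 2 met it downwards, Capn3 and the lysosomal membrane gene Lamp1, with a median of 0.04. Of 12 gap junction and membrane transport genes, 2 met it upwards, Aqp1 and the glucose transporter gene Slc2a3, with a median of 0.08.

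Glycolytic genes had a median of 0.47 over 15 measured. Of these, 4 met the descriptive rule upwards (26.7%, beside 6.64% over all genes), Ldhb, Ldha, Pfkm and Pfkp, and 1 downwards (6.67%, beside 5.41%). Pfkm and Pfkp encode phosphofructokinase, which commits sugar to glycolysis. Pfkm had signals of 403, 565 and 741 at 14 days and 1438, 1155 and 1279 at 42 days (1.22 ± 0.32; limma, adjusted p = 0.408). Pfkp had 185, 289 and 289 against 553, 541 and 1104 (1.47 ± 0.44). In both the lowest 42-day array exceeded the highest of 14 days, which the rule asks for. Pdk1, the kinase that shuts pyruvate out of mitochondria, was the lower one, at 411, 499 and 499 against 242, 235 and 260 (-0.93 ± 0.31; limma, adjusted p = 0.51). The list's median ran from 0.27 without wt 42 days replicate 2 to 0.72 without wt 14 days replicate 1.

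Other metabolic lists lay nearer to the median of all genes. Of 27 genes of mitochondrial respiration, 1 met the rule upwards, Sdha, and none downwards, with a median of 0.20. Of 22 genes of glutathione and oxidative stress defence, 1 met it upwards and 1 downwards, with the same median. The upward one was thioredoxin (Txn1), a reducer of protein disulfides, at 3551, 2738 and 2788 against 4396, 4070 and 6057. The downward one was Gclc, the catalytic subunit for the first step of glutathione synthesis, at 1969, 2192 and 1915 against 1182, 1040 and 1186 (-0.83 ± 0.41; limma, adjusted p = 0.652). Both of these antioxidant genes separated the ages without overlap, a condition of the rule. Of 15 cholesterol synthesis genes, 1, Ebp, met it upwards, with a median of -0.02.

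Ribosomal protein genes had a median of 0.31 over 21 measured, and none met the descriptive rule in either direction. For 13 of the 21, wt 14 days replicate 1 was the highest of the 14-day arrays, and for 10 both other 14-day arrays lay below all of 42 days. Rps19 shows this: 7553, 2574 and 2357 at 14 days and 12026, 7911 and 7321 at 42 days. The counts of 13 and 10 have no share over all genes beside them. In the 6 arrays without wt 14 days replicate 1 the Rps19 difference was 1.85 (limma, adjusted p = 0.029). Under quantile normalization the list's median was 0.10, beside a shift of -0.10 in the median of all probe sets.

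Translation factors had 2 of 24 genes higher by the rule and 2 lower, with a median of -0.13. Eif5, which triggers GTP hydrolysis at the start codon, had 3045, 3286 and 3046 at 14 days and 1044, 1067 and 1715 at 42 days (-1.33 ± 0.29; limma, adjusted p = 0.306). Eif5b, which joins the ribosomal subunits, had 13203, 14091 and 11785 against 7008, 6400 and 6377 (-0.98 ± 0.48). Eif4ebp1, a repressor of cap-dependent initiation, had 176, 167 and 223 against 305, 447 and 281, and Eif6, which keeps the subunits apart, had 479, 366 and 330 against 676, 686 and 669. By the rule, the initiation genes Eif5 and Eif5b were thus lower and Eif4ebp1 and Eif6 higher in every 42-day array. Ribosome biogenesis and RNA processing had 1 of 24 genes higher, Nolc1, and none lower (median -0.08).

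In protein folding and the unfolded protein response, 2 of 33 genes were higher by the rule and none lower, with a median of -0.04. Ddit3, a transcription factor of unresolved stress in the endoplasmic reticulum, had 518, 276 and 319 at 14 days and 786, 838 and 1252 at 42 days (1.39 ± 0.52; limma, adjusted p = 0.557). Fkbp4, a partner of HSP90, had 1358, 2165 and 2118 against 2718, 2395 and 5863, and its highest value lay in wt 42 days replicate 3, without which the difference was 0.47 in place of 0.87. A second Fkbp4 probe set separated the ages, at 849, 756 and 987 against 1780, 1576 and 1941 (1.03 ± 0.32; limma, adjusted p = 0.474), and stayed at 0.96 without that array. In ubiquitin and proteasome genes 1 of 25 was higher and 4 were lower, with a median of -0.04. The higher one, Psmd4, a ubiquitin receptor of the proteasome, had 4414, 1262 and 1131 against 4489, 6483 and 9776. Its wt 14 days replicate 1 came close to the lowest 42-day array, and in the 6 arrays without it the difference was 2.46 (limma, adjusted p = 0.0171). Of the 4 lower ones, Psma1, Psmb7, Psmc4 and Psmd1, Psmb7 had 2963, 3733 and 3579 against 2743, 2021 and 1482 (-0.76 ± 0.35).

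Cell cycle and DNA replication genes had 3 of 43 higher and 3 lower by the rule, with a median of -0.10, and 13 of the 43 were dim. The lower ones were Kif11, Hmgb2 and Pcna. Kif11, the kinesin that separates spindle poles, had 41.8, 109 and 151 at 14 days and 14.9, 11 and 21.2 at 42 days. Hmgb2, a chromatin protein of dividing cells, had 106, 126 and 83.5 against 9.79, 2.73 and 32.5. These signals are near the bottom of the scale, and with a floor at the 40th percentile the differences of Kif11 and Hmgb2 were -0.06 and 0.00. The higher ones were Foxm1, Ccne1 and Stmn1, and Foxm1, a mitotic transcription factor, had 290, 195 and 495 against 661, 759 and 573 while its dimmer second probe set differed in sign (-0.60). Of 7 CDK inhibitors, 1 was higher, Cdkn2b, with a median of 0.61.

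Signaling lists had few members past the rule. In TGF-beta and BMP signaling, 3 of 30 were lower, Smad4, Smad6 and Id2, and none higher, with a median of -0.18. The median was -0.04 without wt 14 days replicate 1, 0.00 without wt 42 days replicate 3 and 0.17 without both. Id2, a target of BMP signaling that blocks differentiation factors, had 2374, 4378 and 3847 at 14 days and 1982, 1496 and 1847 at 42 days (-0.96 ± 0.40; limma, adjusted p = 0.606). In Notch signaling, 2 of 13 were lower and none higher, with a median of 0.01. Notch3, a receptor, had 251, 301 and 351 against 164, 86.1 and 103 (-1.40 ± 0.42), and Adam10, the protease that cleaves Notch, had 1494, 1430 and 913 against 848, 558 and 376 (-1.15 ± 0.41), whereas a second, dimmer Adam10 probe set differed in sign (0.47).

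Among FGF, IGF and growth factor genes, 1 of 21 was higher, Egfr, which was dim, and 1 lower, with a median of -0.10. The lower one, Igfbp2, which binds insulin-like growth factors, had 984, 591 and 796 against 413, 464 and 396 (-0.87 ± 0.32; limma, adjusted p = 0.536). Igfbp2 at 2 days, at 426, 376 and 355, lay with the 42-day arrays and not with those of 14 days. In Wnt signaling 1 of 25 was higher, Wnt5b, and none lower, with a median of -0.13 that was 0.31 without wt 42 days replicate 3.

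Basement membrane genes bear on the lens capsule, which is the thick basement membrane that encloses the lens. Of 21 measured, 3 were lower by the rule and none higher, with a median of -0.06 that was 0.14 without wt 14 days replicate 1 and -0.40 without replicate 2. Col4a1, a chain of the collagen IV network, had 10695, 17712 and 15282 at 14 days and 7127, 6035 and 7991 at 42 days (-1.02 ± 0.41; limma, adjusted p = 0.586). Sparc, given above, and nidogen-2 (Nid2), a linker of laminin and collagen IV, were the others, Nid2 at 94.8, 149 and 124 against 4.25, 63.6 and 3.5, which is dim at both ages. The summed signal of the list was 33636 to 45889 in the 14-day arrays and 23384 to 24343 in those of 42 days, without overlap. This sum is weighted to bright genes such as Col4a1 and Sparc, both lower by the rule, so it is not a separate result for the list.

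Of 26 integrin and adhesion genes, 2 were higher, Itga5 and Ncam1, and 4 lower, Cdh2, Itgav, Tjp1 and Rdx, with a median of -0.31 that was 0.13 without wt 14 days replicate 1. Cytoskeletal genes had 2 of 26 higher and 5 lower (19.2%, beside 5.41% over all genes), with a median of 0.00. The lower ones were Tmsb4x, Sptan1, Sptbn1, Actn1 and Myh9. Tmsb4x, thymosin beta-4, which holds actin monomers, had 5364, 7827 and 5972 against 2379, 3053 and 1989 (-1.37 ± 0.30; limma, adjusted p = 0.3). Its 42-day arrays all lay below the lowest of 14 days, as the rule requires. The higher ones were Tubb5 and Stmn1, and Tubb5, a beta-tubulin, had 9494, 3942 and 5365 against 11052, 13651 and 12286. Actb, the main actin control, could not be read as a reference: it had 4587, 256 and 186 at 14 days and 3394, 7281 and 2091 at 42 days.

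Circadian clock genes had a median of 0.42 over 15 measured, with 4 higher by the rule (26.7%, beside 6.64%) and none lower. Dbp, an output factor of the clock, had 309, 407 and 275 at 14 days and 897, 721 and 1080 at 42 days (1.45 ± 0.77; limma, adjusted p = 0.663). Its relative Tef had 1955, 1101 and 1826 against 2613, 3345 and 2350. The repressor gene Cry1 had 1403, 1436 and 1110 against 1945, 1559 and 2743, and the activator gene Rora had 277, 222 and 340 against 481, 409 and 647. All 4 were higher in every 42-day array, as the rule requires. Of 2 further, dim Cry1 probe sets 1 was lower (-2.02) and 1 higher (2.05). Without wt 14 days replicate 1 the median of the list was 0.09, and the sources used here do not give the hour of tissue collection.

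Immediate early and stress genes had 2 of 27 higher, Junb and Ier2, and 2 lower, with a median of 0.21. Gadd45b, a stress sensor upstream of p38, had 2936, 3166 and 2894 against 1014, 1213 and 761 (-1.62 ± 0.38; limma, adjusted p = 0.361), while its second probe set gave -0.29. Mdm2, which targets p53 for degradation, had 2097, 1731 and 2184 against 640, 463 and 1102 (-1.53 ± 0.38). Both separated the ages without overlap, as the rule requires. Of 17 glucocorticoid and metallothionein genes, none was higher and 2 lower, Ddit4 and Zbtb16 (median 0.06). Of 31 apoptosis genes, 1 was lower, Bid (median -0.03). Of 27 genes of complement, antigen presentation and interferon response, 2 were higher, Irf1 and Psmb8, and 1 lower, Gbp2 (median 0.05).

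Genes of the retina differed widely among the 14-day arrays. Of 18 photoreceptor genes, 17 were lowest in wt 14 days replicate 1 among the arrays of its age. For 11, both other 14-day arrays lay above all arrays of 42 days. No share over all genes stands beside these counts. The summed signal of the list was 6985 in wt 14 days replicate 1, 18416 and 20562 in replicates 2 and 3, and 10752 to 11989 at 42 days. Sag, the arrestin of rods, had 500, 4712 and 4091 at 14 days and 735, 873 and 1263 at 42 days. Gnat1, the rod transducin, had 141, 1113 and 1325 against 50.9, 204 and 28.1, and recoverin (Rcvrn) 42.9, 580 and 839 against 44.2, 104 and 19.6. In the 6 arrays without wt 14 days replicate 1 the difference of Sag was -2.24 (limma, adjusted p = 0.0154). The list's median was -0.46, and it was -0.76 without wt 14 days replicate 1, -0.10 without replicate 2 or 3 of that age, -0.13 without wt 42 days replicate 3 and 0.02 with the deposited scale as a block. Guca1a, the activator of photoreceptor guanylate cyclase, alone met the rule, and upwards, at 274, 478 and 411 against 1051, 878 and 1363 (1.52 ± 0.39; limma, adjusted p = 0.408). The part of retinal RNA in the age differences was not tested.

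**Figure D4:**
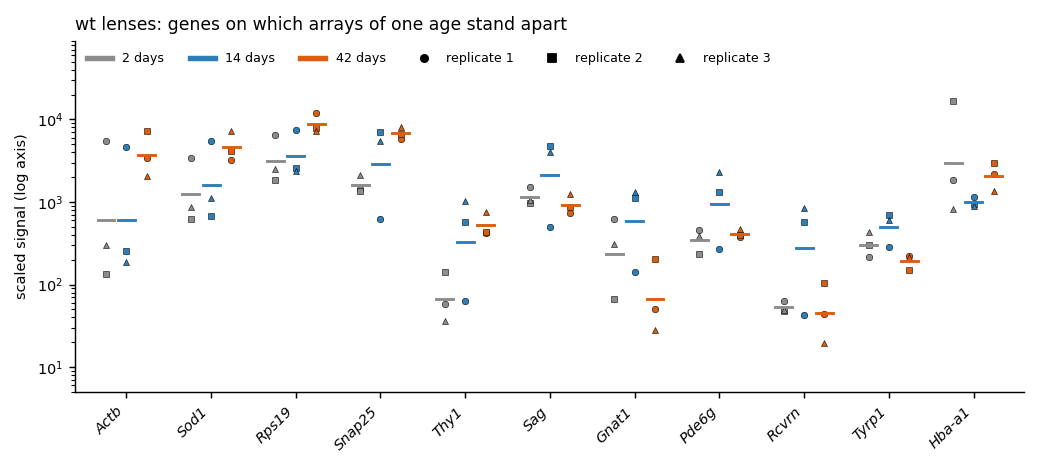
Scaled signal on a log axis of housekeeping genes and of markers of other tissues in the 9 wt arrays; symbols are arrays, coloured by age and shaped by replicate, and bars are geometric means. For Actb, Sod1 and Rps19 wt 14 days replicate 1 lies high in its group, and for Snap25, Thy1, Sag, Gnat1, Pde6g and Rcvrn it lies lowest.

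Inner retina and neuron genes showed the same order of 14-day arrays, with 17 of 21 lowest in wt 14 days replicate 1, again without a share over all genes. Their summed signal was 25671, 39012 and 40220 at 14 days and 48099 to 51450 at 42 days, and 2 met the rule upwards, Syp and Apoe, with a median of 0.47 that was -0.06 without wt 14 days replicate 1 and 1.01 with the deposited scale as a block. Apoe, a lipid carrier, had 7452, 9050 and 9708 against 18747, 16608 and 19923 (1.08 ± 0.55; limma, adjusted p = 0.654). A large part of the summed signal of the list, and of its rise, came from Apoe, so the sum is not a separate result for the other genes. Snap25, a synaptic SNARE, had 630, 7022 and 5538 against 5788, 6701 and 8090. Snap25 thus depended on 1 array, whereas Apoe was higher in every 42-day array. Among 10 genes of pigment epithelium, iris and ciliary body, 1 was higher, Oca2, and 2 lower, Tyrp1 and Rgr, with a median of -0.39 that was -0.77 without wt 14 days replicate 1 and -0.21 without wt 42 days replicate 2. Tyrp1, an enzyme of melanin synthesis, had 289, 690 and 604 against 219, 150 and 214.

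Markers of vessels and blood had few genes past the rule. Of 16 endothelial genes, 7 of them dim, 2 were lower by the rule and none higher, Cldn5, the claudin of tight vessels, at 178, 155 and 133 against 32, 48 and 29.8, and Cdh5, the cadherin of endothelium, at 36.7, 65.3 and 94.4 against 16.5, 19.4 and 13.5. With a floor at the 40th percentile the differences of Cldn5 and Cdh5 were -0.20 and 0.00. Brighter endothelial markers overlapped between the ages. Kdr had 236, 303 and 526 against 474, 536 and 1462 (1.10), and Pecam1 had 324, 119 and 173 against 320, 58 and 218 (-0.24). Tek was dim (-0.46). The summed signal of this list was 1904 to 2808 at 14 days and 2201 to 3585 at 42 days, with a median of 0.21 that was -0.24 when dim probe sets were left out. Of 14 angiogenic factors 1 was higher, Ccn2 (median -0.03). Of 24 macrophage and myeloid genes 1 was lower, Mpeg1, at 113, 253 and 302 against 35.3, 45.8 and 48.9, with a dim second probe set of the other sign, and the list's median was -0.27, or -0.53 without wt 14 days replicate 1 and -0.15 without wt 42 days replicate 3. Of 13 erythroid genes 1 was higher, Hba-a1, the alpha-globin, at 1156, 939 and 889 against 2175, 2992 and 1362. The erythroid median of 0.45 was 0.01 without wt 14 days replicate 1 and 0.13 without wt 42 days replicate 1. Of 22 skeletal muscle genes 3 were higher, Actn3, Atp2a1 and Tnnc1, with 10 of the 22 dim (median 0.47, or 0.15 without wt 14 days replicate 3). The defining muscle markers did not rise with them. Ckm overlapped, at 171, 468 and 526 against 422, 67 and 81.1 (-1.40), with a dim second probe set at 0.59. Myh2 and Acta1 were dim (-0.90 and -0.16). Of 25 genes of fibroblasts and interstitial matrix 2 were lower, Eln and Lum (median -0.07).

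**Figure D5:**
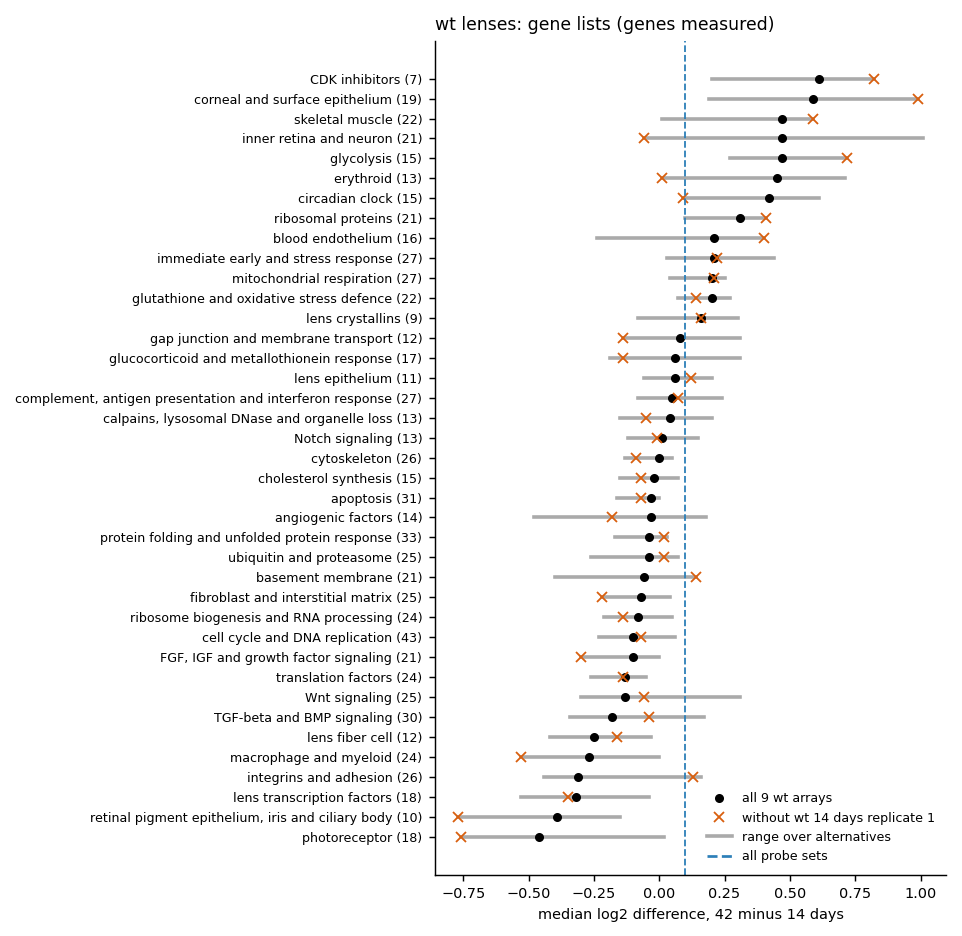
Median log2 difference of 42 minus 14 days in wt lenses for 39 gene lists, with the number of genes measured in brackets; dots use all 9 wt arrays, crosses leave out wt 14 days replicate 1, grey bars span 22 alternatives and the dashed line is the median of all probe sets, 0.10. Medians run from -0.46 (photoreceptor) to 0.61 (CDK inhibitors), and the grey bars of many lists cross 0.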

How the data were processed

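Per the labels and the study's methods, RNA of whole lens pools was hybridised to Affymetrix U74Av2 arrays and the authors computed signals with MAS5. The deposited values are linear signal intensities per probe set, 1 column per pool; the GeneSpring normalization named in the methods is not in them. Deposited arrays of the series lay at a 2% trimmed mean near 500 (11 arrays) or below it (7), so each was scaled to 500 and floored at 1 (13 values in the 6 arrays) before log2. Image files and detection calls were not used here. The files name no genome build and no coordinates are given. Of 12488 probe sets, 66 controls were left out; of 12422 tested, 10833 had 1 gene symbol, 396 several and 1193 none in the platform annotation.

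limma 3.58.1 in R 4.3.3 fitted 1 mean per age to the 9 wt arrays (lmFit, eBayes with trend, Benjamini-Hochberg adjustment over all probe sets). The fit was tried on simulated data with independent noise in each array, a setting without deviations such as those of wt 14 days replicate 1. Summaries used Python 3.11.15. The number of arrays limits the precision. Standard errors follow the sign ± after log2 differences. Named genes were those passing the test or, up to 10 in each direction, the next by p with a signal above the median probe set at the higher age and no overlap, and up to 4 members by p of each of 39 gene lists (all of the crystallin, fiber and epithelium lists), with other probe sets where they differed; genes named to spell out a count were chosen after their values were seen. Bright probe sets have a mean signal above 200 and dim ones lie below the 40th percentile (134.2) at both ages. The comparison, its members and the lists were chosen with earlier results of these data known. The alternatives covered scaling, floor, filter, arrays fitted, weights, blocks and leaving out each array.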

Additional observations from a re-analysis of the deposited data

How the results depend on the processing

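The count of probe sets higher by limma, 1, was 0 with median scaling, with a floor at the 40th percentile, without the variance trend, with all 18 arrays and with only the 6 arrays of these ages; the count lower, 0, was 0 in each of these. Both counts were 0 with the deposited scale as a block and, in a paired fit with the replicate block, 0 and 0. The labels do not say whether the replicate numbers pair the pools. Deviations of same-numbered arrays correlated at -0.154 to -0.040 between 14 and 42 days. Between 2 and 14 days they correlated at 0.552, 0.35 and 0.035. With 3 arrays per age these values cannot decide whether the pools were paired. With array weights the counts were 4 and 13, and by the ratio rule 864 and 612. Leaving out 1 array gave 0 to 1 higher and 0 to 1 lower. Among settings added after seeing the data, the 6 arrays without wt 14 days replicate 1 gave 68 and 62, those without wt 42 days replicate 3 gave 0 and 0, and a fit without both of these arrays 0 and 0. The cause of these changes was not tested. Quantile normalization and leaving out dim probe sets (8166 tested) gave 1 and 0, as reported. Median scaling moved the median of all probe sets by -0.13 and quantile normalization by -0.10, and the share of higher among probe sets with an unadjusted p under 0.05 was 55.7%, 35.8% with median scaling and 43.0% with quantile normalization. Every alternative kept the sign of the 20 leading genes, which their choice for no overlap fixed in advance wherever arrays were left out. Some alternative turned the sign of 7 crystallin, 4 fiber cell and 5 epithelial genes and of the second probe sets of Foxm1, Gadd45b and Ppfibp2, and with the floor Hmgb2 and Cdh5 were at 0.00. Medians of many gene lists moved by more than 1.5 times or turned sign when single arrays were left out. Signal near the floor limits what dim genes can show.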
